A study of Mus musculus with 12 samples.

Results

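The effect of a short hairpin RNA against TRAX (shTRAX) on the miRNAs of wild-type (WT) mouse striatum was described from 6 of the 12 small RNA libraries of the study. The WT shTRAX group held 3 libraries and the WT control group held 3, and each group was taken from the genotype and shRNA labels. All of these mice carried the strain label B6CBAFI/J, received an adeno-associated virus (AAV) into the striatum on both sides at 5 weeks of age (2 µl per injection spot), and gave striatum at 10.5 weeks. The AAV of the first group expressed shTRAX and that of the second a control hairpin, so injection and AAV were common to both. The other 6 libraries came from R6/2 mice, which carry exon 1 of a mutant human huntingtin gene and serve as a model of Huntington's disease, after injection of the same AAVs (3 R6/2 shTRAX and 3 R6/2 control libraries), and they were used here only to set single values beside the WT ones. The labels give neither the promoter of the hairpin nor the cells it reached, and Tsnax mRNA, which encodes TRAX, is not measured by miRNA sequencing, so the knockdown could not be checked. They also do not say whether the replicates of a group are different animals, so the p-values below measure the spread between these samples, which may be technical.

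A miRNA is cut from a hairpin by Drosha and then Dicer, which leaves a duplex of a 5p and a 3p strand. One strand is kept in an Argonaute protein and finds its target mRNAs mainly through its seed, the bases numbered 2 to 8, while the other, the passenger strand, is discarded. TRAX is the partner of translin, and the complex of both is an RNase that was found in flies and in vitro to cut passenger strands and so to help load Argonaute. The Dlk1-Dio3 region of mouse chromosome 12, to which several of the results belong, is an imprinted region whose miRNAs are made from the maternal chromosome, from long non-coding RNAs that include Mirg, and are abundant in brain.

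The sequences that the results turn on are those of miR-496a-3p, of both arms of miR-412, and of the other miRNAs with the smallest p in each direction. They are given as RefSeq lists them for GRCm38.p6, 5′ to 3′, with the seed in capitals.
miR-496a-3p: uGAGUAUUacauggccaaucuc
miR-412-5p: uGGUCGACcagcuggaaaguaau
miR-412-3p: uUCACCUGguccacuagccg
miR-1197-3p: uAGGACACauggucuacuucu
miR-216a-5p: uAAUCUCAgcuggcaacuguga
miR-667-5p: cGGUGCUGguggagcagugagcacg
miR-3535: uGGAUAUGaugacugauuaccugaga
miR-671-5p: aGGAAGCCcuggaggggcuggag
No pair of these 8 shares a seed. The hairpins of miR-496a and miR-412 are printed next with the mature arms in capitals, since both strands of the duplex matter to a strand-removing RNase.
mir-496a: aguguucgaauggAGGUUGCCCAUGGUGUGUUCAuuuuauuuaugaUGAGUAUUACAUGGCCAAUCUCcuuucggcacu
mir-412: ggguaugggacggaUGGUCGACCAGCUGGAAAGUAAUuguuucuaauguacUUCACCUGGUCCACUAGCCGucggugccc
The mir-496a hairpin lies at chr12:109739119-109739197 on the plus strand, inside an intron of Mirg, and the mir-412 hairpin at chr12:109743289-109743368 on the same strand, in an exon of Mirg (GRCm38, GENCODE). The 5p arm of mir-496a did not pass the filter on low counts, so it was not tested.

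Once WT shTRAX replicate 1 was left out, 57 miRNAs passed the test, and 50 of them had a RefSeq sequence. Among these 50, 4 further seeds were shared by more than 1 miRNA. Seeds shared with the calls that had no sequence could not be seen. The pairs were picked after their values were seen.
miR-132-3p: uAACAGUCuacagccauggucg
miR-212-3p: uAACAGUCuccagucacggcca
miR-181a-5p: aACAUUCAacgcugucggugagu
miR-181b-5p: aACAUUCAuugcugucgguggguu
miR-100-5p: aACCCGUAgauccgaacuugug
miR-99a-5p: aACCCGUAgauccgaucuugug
miR-376b-5p: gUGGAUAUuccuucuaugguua
miR-376c-5p: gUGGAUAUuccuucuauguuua

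The 6 libraries held 14170438 to 16907912 counts on the 1915 mature miRNAs and 1049 to 1106 miRNAs with a count above 0. WT shTRAX replicate 1 stood apart from the other libraries of its group. The chi-square of its counts against those of replicates 2 and 3, divided by the degrees of freedom, was 673 and 788, against 92.3 between replicates 2 and 3 and 67.2 to 165 between WT controls. On the main axis of a principal component analysis (45.3% of the variance) it scored -7.08, on the side of the WT controls (-3.24 to 0.13) and away from shTRAX replicates 2 and 3 (6.18 and 6.25). Its sum of microglia and inflammation markers (34170 CPM, where CPM is the TMM-scaled count per 1000000 counts of the library), of choroid plexus and ependyma markers (6357 CPM) and of hindbrain and spinal cord markers from the Hox clusters (88.6 CPM) was the highest of the 6 libraries, and its sum of neuron-enriched miRNAs (247400 CPM) was the lowest. Both comparisons, with all 6 libraries and without this one, are therefore given, and values are with all 6 unless the paragraph says otherwise.

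miR-496a-3p was the 1 miRNA called with all 6 libraries. It stood at 182.5, 211.4 and 233 CPM in shTRAX replicates 1, 2 and 3, against 90.9, 86.6 and 95.6 CPM in the controls. The lowest shTRAX library lay far above the highest control, so the groups did not overlap, and replicate 1 lay between the other shTRAX libraries and the controls. The means were 209 ± 25.1 CPM under shTRAX and 91.0 ± 4.49 CPM in controls (SD, n = 3 each), a log2 fold change of 1.20 ± 0.12 (SE), and the edgeR quasi-likelihood test gave a Benjamini-Hochberg adjusted p of 0.009. Without replicate 1 the log2 fold change was 1.26 ± 0.08 and the edgeR adjusted p was 0.00109. The call was 1 of 665 miRNAs tested, or 0.15%. An unadjusted p under 0.05 was reached by 50 (7.52%), of which 27 were higher (4.06%) and 23 lower (3.46%). It was lost without shTRAX replicate 2, without any 1 of the 3 controls and in a fit over all 12 libraries, while without shTRAX replicate 3 it was 1 of 2, with miR-448-3p. Over all alternatives the log2 fold change stayed between 1.11 and 1.28 and the edgeR adjusted p reached 0.203.

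miR-412-5p, the more abundant arm of a hairpin further downstream in the same host transcript, stood at 105, 77.7 and 86.8 CPM under shTRAX, against 50.6, 46.3 and 51.1 CPM in controls. All 3 shTRAX libraries lay above all 3 controls, and replicate 1 was the highest of them. Its log2 fold change was 0.86 ± 0.14 with an edgeR adjusted p of 0.0836, short of the threshold of 0.05, and 0.71 ± 0.09 without replicate 1 (edgeR adjusted p = 0.0145). The other arm, miR-412-3p, was much less abundant at 2.91, 4.12 and 4.17 CPM under shTRAX, against 2.03, 2.63 and 1.88 CPM in controls. Its groups did not overlap either, and its log2 fold change of 0.77 ± 0.23 was not called (edgeR adjusted p = 0.609). Without replicate 1 it was called, at 0.90 ± 0.20 (edgeR adjusted p = 0.0435).

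The hairpins that lie between and around these had smaller differences. miR-154-3p, from the hairpin just before mir-496a, stood at 22.3, 19.7 and 23.9 CPM under shTRAX, against 16.3, 18.1 and 18.5 CPM in controls, a log2 fold change of 0.32 ± 0.13 (0.28 ± 0.12 without replicate 1). miR-377-3p, from the hairpin just after it, stood at 43.1, 31.0 and 31.3 CPM under shTRAX, against 39.3, 44.6 and 43.0 CPM in controls, a log2 fold change of -0.27 ± 0.16 (-0.46 ± 0.10 without replicate 1). Between mir-377 and mir-412 lie mir-541 and mir-409, whose arms had log2 fold changes of -0.04 to 0.26 (-0.22 to 0.29 without replicate 1), and mir-369 and mir-410 beyond them had 0.10 to 0.30 (0.04 to 0.28). None of these was called with all 6 libraries, and miR-377-3p was called lower without replicate 1 (edgeR adjusted p = 0.0435). The neighbours were picked by position.

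**Figure D1:**
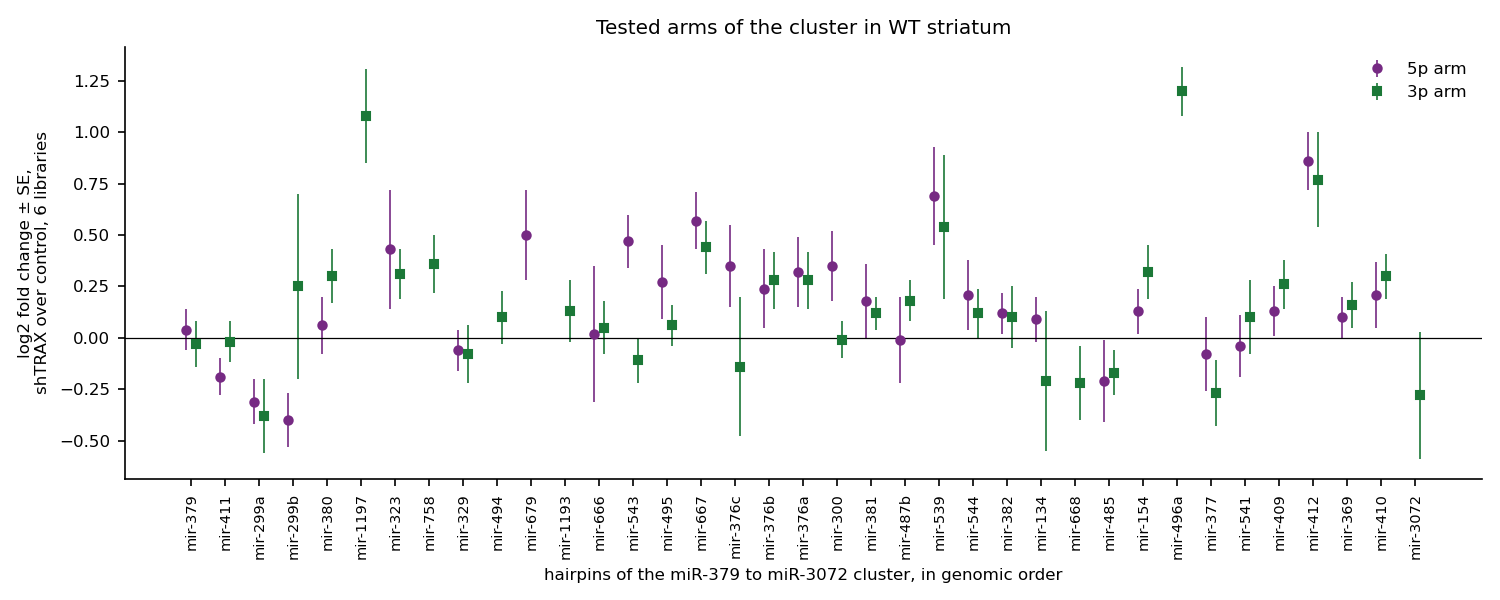
Log2 fold change, shTRAX over control (vertical axis, ± SE, 6 libraries), of each tested 5p (circles) and 3p (squares) arm of the cluster from mir-379 to mir-3072, in genomic order along the horizontal axis. miR-496a-3p at 1.20 and miR-1197-3p at 1.08 stand highest, both arms of mir-412 stand at 0.86 and 0.77, and most of the other arms lie within 0.50 of 0.

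The cluster that holds them runs from mir-379 to mir-3072 on chromosome 12 (109709060 to 109747960) with 64 tested arms, of which 45 lay above 0 with a median of 0.12, where 48.0% of all 665 miRNAs lay above 0, 52.0% lay below it and their median was -0.01. Without replicate 1 its count above 0 was 45 of 64 again, with a median of 0.14. Over the whole region between Dlk1 and Dio3, 117 miRNAs were listed and 92 tested. Of these 64 lay above 0, 1 was called higher and none lower, and 20 had all shTRAX libraries above all controls, against 5 with all below. Groups did not overlap for 101 of all 665 miRNAs (15.2%), 47 of them higher under shTRAX (7.07%) and 54 lower (8.12%). Without replicate 1, 60 of the 92 lay above 0 and the groups did not overlap for 47 higher and 11 lower ones, where 23.2% of all 678 miRNAs were higher and 25.4% lower in that way.

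Besides miR-496a-3p and miR-412-5p, the higher miRNAs with the smallest p were scarce ones. miR-1197-3p, from the same cluster, stood at 4.03, 5.39 and 4.10 CPM under shTRAX, against 2.205, 1.62 and 2.53 CPM in controls, which are 61, 76 and 62 counts against 37, 24 and 39. Its log2 fold change was 1.08 ± 0.23 (edgeR adjusted p = 0.252), and its groups did not overlap. miR-216a-5p, a miRNA known for its high level in pancreas, stood at 5.42, 7.88 and 7.27 CPM under shTRAX, against 4.11, 3.98 and 3.82 CPM in controls, with replicate 1 between the other shTRAX libraries and the controls (0.78 ± 0.18, edgeR adjusted p = 0.325). miR-667-5p, also of the cluster, was the most even, at 6.93, 6.60 and 6.68 CPM under shTRAX, against 4.77, 4.72 and 4.15 CPM in controls (0.57 ± 0.14, edgeR adjusted p = 0.436).

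Of the lower miRNAs with the smallest p, none passed with all 6 libraries, and the groups did not overlap for any of the 5. They were picked by p from these same libraries, which favours such separation. Over all 665 miRNAs, 54 (8.12%) had groups that did not overlap with shTRAX lower. miR-3535 is listed inside a small nucleolar RNA gene within Ncl, so its reads could come from that RNA. It stood at 31.3, 24.3 and 26.0 CPM under shTRAX, against 42.2, 41.4 and 42.3 CPM in controls (log2 fold change -0.63 ± 0.13, edgeR adjusted p = 0.252). miR-187-5p stood at 22.98, 13.3 and 16.7 CPM under shTRAX, against 31.3, 32.1 and 31.5 CPM in controls (-0.84 ± 0.20, edgeR adjusted p = 0.325). The 3p arm of the same hairpin, miR-187-3p, which is far more abundant, stood at 1670, 2040 and 2190 CPM under shTRAX, against 1990, 1970 and 2130 CPM in controls, so the difference was seen in the minor arm and the groups overlapped in the major one.

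miR-671-5p, from an exon of Chpf2, stood at 30.7, 19.9 and 24.9 CPM under shTRAX, against 37.8, 37.2 and 41.0 CPM in controls (log2 fold change -0.62 ± 0.17). miR-383-5p, a brain miRNA from an intron of Sgcz, stood at 972, 769 and 900 CPM under shTRAX, against 1110, 1190 and 1140 CPM in controls (-0.38 ± 0.11). miR-299b-5p stood at 10.3, 10.4 and 11.6 CPM under shTRAX, against 14.8, 14.2 and 13.5 CPM in controls (-0.40 ± 0.13). Its hairpin lies on the minus strand, opposite mir-299a of the cluster, and whether strand was used in counting is not given in the sources used here. In 4 of these 5 miRNAs (all but miR-299b-5p) replicate 1 was the shTRAX library nearest to the controls.

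**Figure D2:**
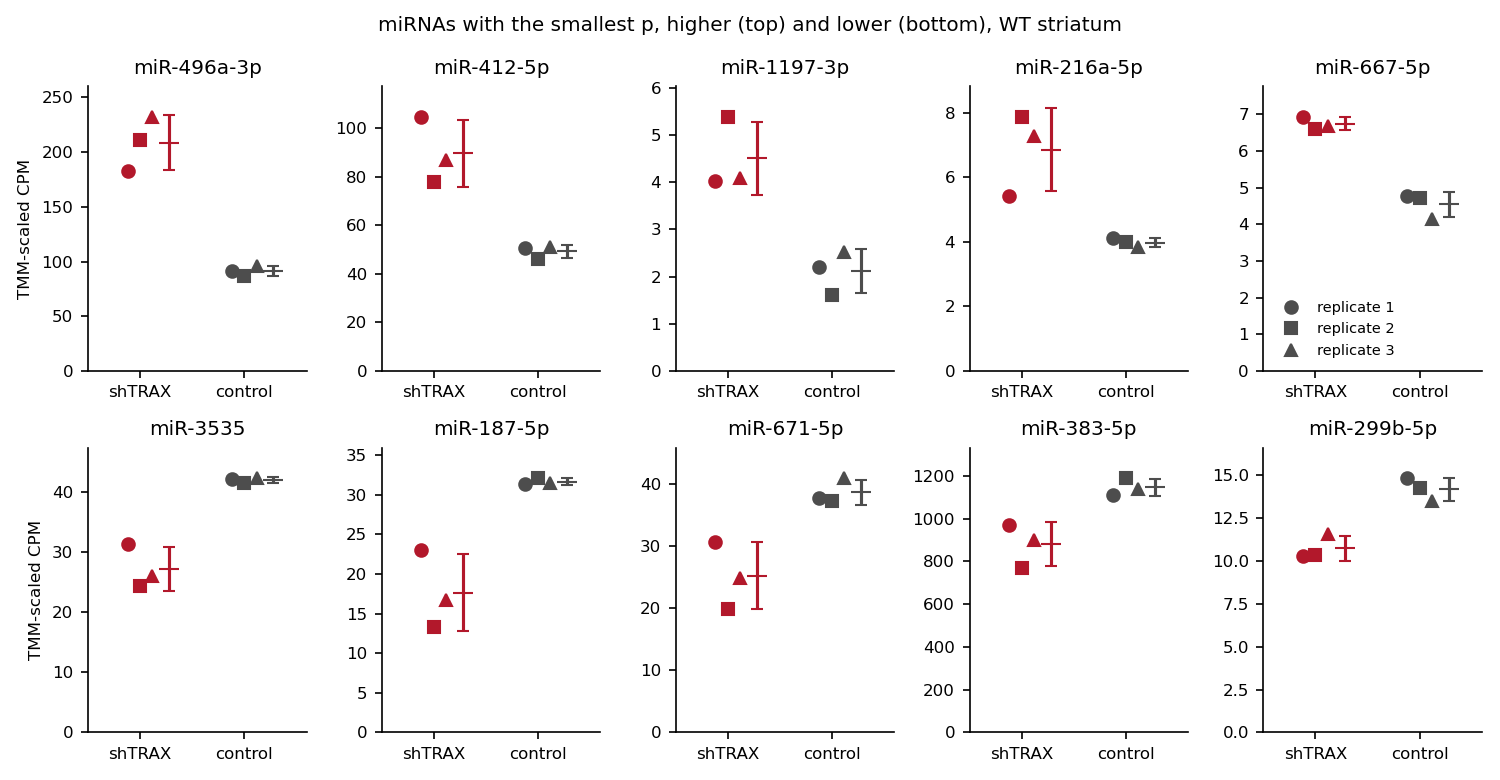
TMM-scaled CPM (vertical axes, from 0) of the 5 higher (top) and 5 lower (bottom) miRNAs with the smallest p, with shTRAX libraries left in red and control libraries right in grey; bars beside the points are the mean ± SD of 3 libraries. In all 10 panels the 3 shTRAX libraries lie on 1 side of the 3 controls, which picking by p favours. Groups did not overlap for 101 of all 665 miRNAs (15.2%).

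Without WT shTRAX replicate 1, 57 of 678 miRNAs were called (8.41%), 23 higher (3.39%) and 34 lower (5.01%). An unadjusted p under 0.05 was reached by 30.1%, and groups did not overlap for 329 (48.5%; 23.2% higher, 25.4% lower). With DESeq2's size factors (RLE) in place of TMM the split was 25 higher and 16 lower of 41. The biological coefficient of variation was 0.133 without that library and 0.192 with it. The left-out library did not take the side of the other shTRAX libraries for most of the 57: it lay beyond the controls on the opposite side for 29, among the controls for 15, between the groups for 11, and at the level of replicates 2 and 3 for 2, miR-412-5p and let-7b-5p. The 11 in between included miR-496a-3p, and also miR-383-5p, miR-671-5p, miR-187-5p, miR-3535, miR-216a-5p and miR-1197-3p. Leaving out any 1 of the 3 WT controls as well left 1 call, miR-496a-3p, and leaving out shTRAX replicate 2 or 3 as well gave 10 and 60, with 1 shTRAX library left and the controls alone giving the spread. The edgeR fit over the other 11 libraries left 0, and 9.71% had an unadjusted p under 0.05 there. DESeq2 on the 5 libraries called 113 (16.7%).

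**Figure D3:**
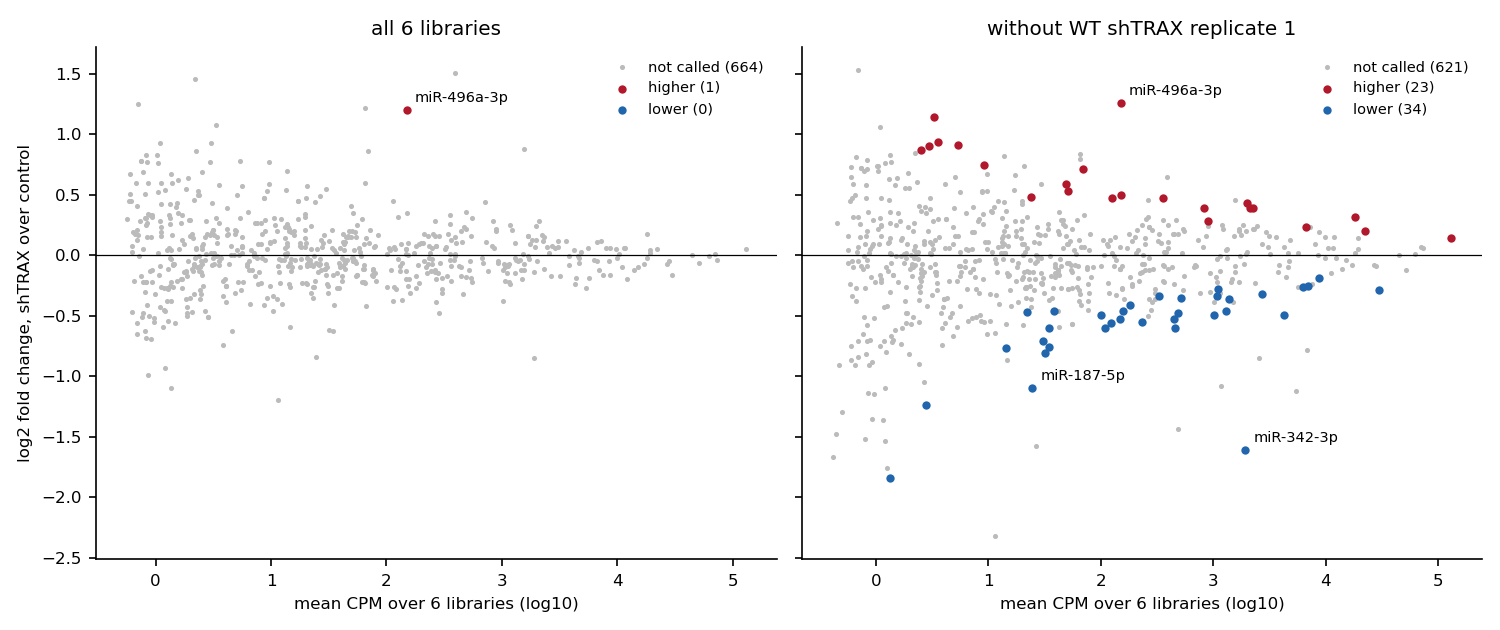
Log2 fold change, shTRAX over control (vertical axis), against the log10 of mean CPM over 6 libraries (horizontal axis) for each miRNA tested, with all 6 libraries (left) and without WT shTRAX replicate 1 (right); red and blue points passed the test as higher and lower. The left panel has 1 higher call and no lower one, and the right panel has 23 higher and 34 lower calls.

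**Figure D4:**
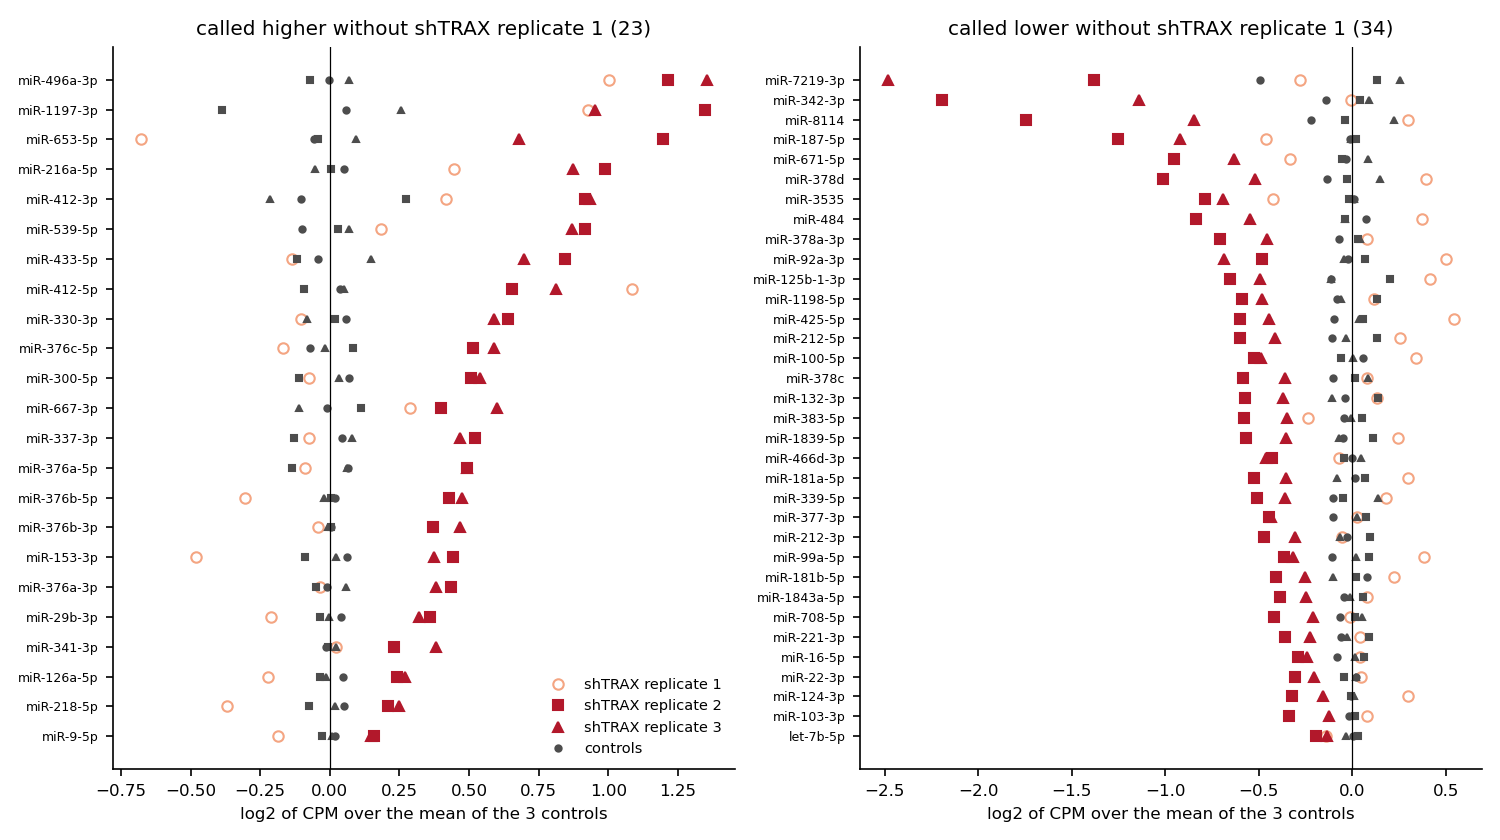
Log2 of CPM over the mean of the 3 controls (horizontal axis) for the 23 miRNAs called higher (left) and the 34 called lower (right) without WT shTRAX replicate 1, with shTRAX replicates 2 and 3 filled in red, replicate 1 as open circles and the controls in grey. The open circles lie on the opposite side of all controls for 11 of the 23 and 18 of the 34.

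Of the 23 miRNAs that rose when replicate 1 was left out (3.39% of 678), 15 are among the 92 tested between Dlk1 and Dio3, and 12 of these are in the cluster from mir-379 to mir-3072. The median log2 fold change of the 23 was 0.48. The miR-376 hairpins, which stand next to each other in that cluster, gave several of them. miR-376b-5p stood at 1480, 2460 and 2540 CPM in shTRAX replicates 1, 2 and 3, against 1850, 1830 and 1800 CPM in controls (log2 fold change 0.43 ± 0.05 without replicate 1, edgeR adjusted p = 0.0145), so replicate 1 was the lowest and the other shTRAX libraries the highest of the 6. miR-376b-3p, the other arm of this hairpin, stood at 1840, 2450 and 2620 CPM under shTRAX, against 1900, 1900 and 1890 CPM in controls (0.39 ± 0.05, edgeR adjusted p = 0.017), miR-376a-3p at 736, 1020 and 983 CPM against 750, 728 and 785 CPM (0.39 ± 0.07), and miR-376c-5p at 39.8, 63.9 and 67.3 CPM against 42.6, 47.4 and 44.3 CPM (0.53 ± 0.09). In all 4 of these arms shTRAX replicates 2 and 3 were the highest libraries, which picking by p without replicate 1 favours. Replicate 1 was at or under the level of the controls. Not all arms of these hairpins rose. miR-376c-3p averaged 262 CPM over the 6 libraries, against 50.9 CPM for miR-376c-5p of the same hairpin. Its log2 fold change was -0.14 with all 6 libraries and -0.50 without replicate 1, and it was not called. This arm was named after its values were seen.

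Log2 fold changes without replicate 1 are also given for the other members. Of the region, miR-300-5p rose, at 127, 189 and 194 CPM under shTRAX against 140, 123.5 and 136 CPM in controls (log2 fold change 0.50 ± 0.09 without replicate 1), and so did miR-433-5p, at 6.87, 13.6 and 12.2 CPM against 7.33, 6.95 and 8.36 CPM (0.75 ± 0.14). Both are the minor arms of their hairpins. The major arms, miR-300-3p (mean 4600 CPM, log2 fold change 0.02) and miR-433-3p (50.0 CPM, 0.09), were not called. The others of the 15 not yet described were miR-337-3p (0.47), miR-341-3p (0.28), miR-376a-5p (0.47), miR-539-5p (0.87) and miR-667-3p (0.48), and these 5 were named after their values were seen. One member of the cluster fell, miR-377-3p, whose values are given above. Outside the region, miR-29b-3p, a miRNA that rises as neurons mature, stood at 14800, 22000 and 21400 CPM under shTRAX, against 17600, 16700 and 17100 CPM in controls (0.32 ± 0.04, edgeR adjusted p = 0.0195). miR-153-3p, from an intron of Ptprn2, stood at 1510, 2860 and 2730 CPM under shTRAX, against 2200, 1980 and 2140 CPM in controls (0.39 ± 0.07), and miR-330-3p at 39.4, 65.8 and 63.5 CPM against 44.0, 42.8 and 39.9 CPM (0.59 ± 0.09). In all 3, replicate 1 was the lowest of the 6 libraries and replicates 2 and 3 the highest. Picking by p without replicate 1 favours such a place for replicates 2 and 3. miR-9-5p, the most abundant miRNA of these libraries, was also called higher (0.14 ± 0.03, edgeR adjusted p = 0.0444), at 112000, 142000 and 141000 CPM under shTRAX, against 129000, 125000 and 128000 CPM in controls.

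Among the 34 that fell without replicate 1, the median log2 fold change was -0.49, and miR-342-3p had the largest fall of those that the text names. This miRNA, from an intron of Evl and abundant in immune cells, stood at 2430, 534 and 1110 CPM in shTRAX replicates 1, 2 and 3, against 2220, 2520 and 2600 CPM in controls (-1.61 ± 0.27 without replicate 1, edgeR adjusted p = 0.0241). Replicate 1 thus lay among the controls, and with it the log2 fold change was -0.85 ± 0.46 (edgeR adjusted p = 0.666). The other arm, miR-342-5p, stood at 14.4, 0.142 and 6.35 CPM under shTRAX, against 15.97, 15.4 and 16.7 CPM in controls, so the same libraries were low, but it was not called (edgeR adjusted p = 0.11 without replicate 1). The microglia and inflammation list, of which both arms are members, was at its lowest in the same libraries, with sums of 13200 and 10320 CPM in replicates 2 and 3, against 15050, 21500 and 28460 CPM in controls. The controls were spread more widely in this sum than in miR-342-3p, and its part in the fall of miR-342-3p was not tested. Low levels of both arms were also seen in R6/2 control replicate 1, which had no shTRAX. With 12-library scaling, miR-342-3p stood at 369.4, 421.8 and 2450 CPM in R6/2 shTRAX libraries, against 377.8, 1460 and 1710 CPM in R6/2 controls. miR-342-5p stood at 0.3623, 0.2085 and 9.612 CPM against 0.2201, 17.02 and 18.81 CPM. The cause of this spread was not tested.

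Several lower calls share a seed. miR-132-3p and miR-212-3p, made from 1 locus on chromosome 11 that neuronal activity induces, carry the seed AACAGUC. miR-132-3p stood at 5070, 3110 and 3580 CPM under shTRAX, against 4500, 5090 and 4280 CPM in controls (log2 fold change -0.49 ± 0.09 without replicate 1, edgeR adjusted p = 0.0274), and miR-212-3p at 190.5, 142.5 and 159.9 CPM against 193.6, 210.7 and 188.7 CPM (-0.41 ± 0.09, edgeR adjusted p = 0.0435). In both, replicate 1 lay among the controls. The other shTRAX libraries lay under all of them, which choosing from the calls without replicate 1 favours.

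Of the miR-181 family, with the seed ACAUUCA, miR-181a-5p stood at 1670, 942 and 1060 CPM under shTRAX, against 1370, 1420 and 1280 CPM in controls (-0.46 ± 0.08 without replicate 1), and miR-181b-5p at 628, 406 and 451.3 CPM against 570, 545 and 501 CPM (-0.35 ± 0.08). miR-181c-5p (-0.08) and miR-181d-5p (-0.09), which have the same seed and come from another locus, were not called. miR-100-5p and miR-99a-5p share the seed ACCCGUA. miR-100-5p stood at 595, 325 and 335 CPM under shTRAX, against 489, 449.5 and 470 CPM in controls (-0.53 ± 0.07, edgeR adjusted p = 0.0188), and miR-99a-5p fell as well (-0.36), while miR-99b-5p, with that seed, was not called (-0.31). Replicate 1 was the highest of the 6 libraries for miR-181a-5p, miR-181b-5p and miR-100-5p. Among the 57 calls, 50 had a RefSeq sequence, and they held 46 different seeds.

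A high replicate 1 was also seen in other lower calls, though in miR-16-5p it lay among the controls. miR-92a-3p, of the miR-17-92 cluster, stood at 162, 81.7 and 71.2 CPM under shTRAX, against 112, 120 and 111 CPM in controls (log2 fold change -0.60 ± 0.11 without replicate 1 and -0.12 ± 0.29 with it). miR-425-5p stood at 345, 156 and 174 CPM under shTRAX, against 222, 246 and 243 CPM in controls (-0.55 ± 0.09 without replicate 1 and -0.07 ± 0.28 with it), and miR-484 at 43.0, 18.6 and 22.7 CPM against 34.9, 32.4 and 32.4 CPM (-0.71 ± 0.11 and -0.24 ± 0.29). miR-378a-3p, from an intron of Ppargc1b, a co-activator of mitochondrial genes, stood at 536, 312 and 371 CPM under shTRAX, against 483, 519 and 522 CPM in controls (-0.60 ± 0.09 without replicate 1). miR-378c and miR-378d, named after their values were seen, were also called lower without replicate 1. miR-378a-3p had no sequence in the RefSeq list used, so its seed was not compared. miR-16-5p, from a Dleu2 transcript, was the most abundant of those that fell, at 32300, 25700 and 26500 CPM under shTRAX, against 29700, 32800 and 31700 CPM in controls (-0.29 ± 0.05). In these miRNAs replicates 2 and 3 lay closer to each other than to any control, which picking by p without replicate 1 favours.

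For 4 of the 5 lower miRNAs that the 6-library comparison ranked first, leaving out replicate 1 gave larger differences. In these 4 it was the shTRAX library nearest to the controls, so larger differences follow from leaving it out. The log2 fold change without it was -1.10 ± 0.12 for miR-187-5p (edgeR adjusted p = 0.0142), -0.76 ± 0.09 for miR-3535 (0.0145), -0.81 ± 0.12 for miR-671-5p (0.0198) and -0.49 ± 0.08 for miR-383-5p (0.0221). miR-299b-5p did not pass (-0.40 ± 0.12, edgeR adjusted p = 0.0807), and neither did miR-667-5p among the higher ones (0.52 ± 0.14, edgeR adjusted p = 0.0696). miR-216a-5p rose by 0.91 ± 0.14 (edgeR adjusted p = 0.0221) and miR-1197-3p by 1.14 ± 0.24 (0.0435) on that scale. In both, replicate 1 was likewise the shTRAX library nearest to the controls.

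Sets of miRNAs that mark cell types differed more between libraries than between groups, and in bulk tissue fewer cells of a type and less of its RNA per cell cannot be told apart. The microglia and inflammation list (18 members, 14 tested, none at 0 in every library) summed to 34170, 13200 and 10320 CPM in shTRAX replicates 1, 2 and 3, against 15050, 21500 and 28460 CPM in controls (exact two-sided permutation p = 0.7, where 0.1 is the smallest that 3 against 3 allows). Its median log2 fold change was -0.06 with 5 of 14 above 0, and -0.82 with 2 of 14 above 0 without replicate 1, where 45.9% of all miRNAs lay above 0. miR-142a-3p, which is made in cells of the blood lineage and in microglia, showed the spread, at 4870, 1860 and 990 CPM under shTRAX, against 1300, 2410 and 3940 CPM in controls. miR-21a-5p stood at 11800, 4480 and 3580 CPM under shTRAX, against 5040, 6270 and 9250 CPM in controls, and miR-146a-5p at 9190, 3290 and 2150 CPM against 3450, 6240 and 7900 CPM. For all 3 the order of the shTRAX libraries was the same, with replicate 1 highest. Without replicate 1, only miR-342-3p of the 14 tested members was called lower, where 5.01% of all miRNAs were, and none was called higher.

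The choroid plexus and ependyma list (20 members, none at 0 in every library) summed to 6357, 4016 and 2363 CPM under shTRAX, against 2659, 2376 and 2762 CPM in controls (exact permutation p = 0.4), so shTRAX replicate 3 was at the level of the controls and the other shTRAX libraries above them. Of its 17 tested members 15 lay above 0, with a median of 0.44, and 12 of 17 without replicate 1, with a median of 0.11. Of all miRNAs, 48.0% and 45.9% lay above 0 in these comparisons. miR-1298-5p, from an intron of Htr2c, a serotonin receptor gene highly expressed in choroid plexus, stood at 1090, 469 and 168 CPM under shTRAX, against 220, 143.1 and 242 CPM in controls (log2 fold change 1.51 ± 0.58, edgeR adjusted p = 0.609; 0.65 ± 0.42 without replicate 1). miR-448-3p, from the same host gene, stood at 131, 100 and 40.1 CPM under shTRAX, against 41.9, 29.5 and 45.3 CPM in controls (1.22 ± 0.39; 0.84 ± 0.38 without replicate 1). miR-204-5p, from an intron of Trpm3, stood at 3010, 1960 and 1060 CPM under shTRAX, against 1150, 955 and 1170 CPM in controls (0.88 ± 0.33; 0.46 ± 0.25 without replicate 1). In all 3 replicate 1 was the highest library and replicate 3 lay at the level of the controls, and no member was called with all 6 libraries or without replicate 1. Without shTRAX replicate 3, miR-448-3p was called. miR-1264-3p, hosted by the same gene, varied little, at 267, 338.2 and 289 CPM under shTRAX, against 283, 250 and 268 CPM in controls, and miR-34c-5p stood at 1300, 707 and 435 CPM against 565, 602 and 638 CPM.

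**Figure D5:**
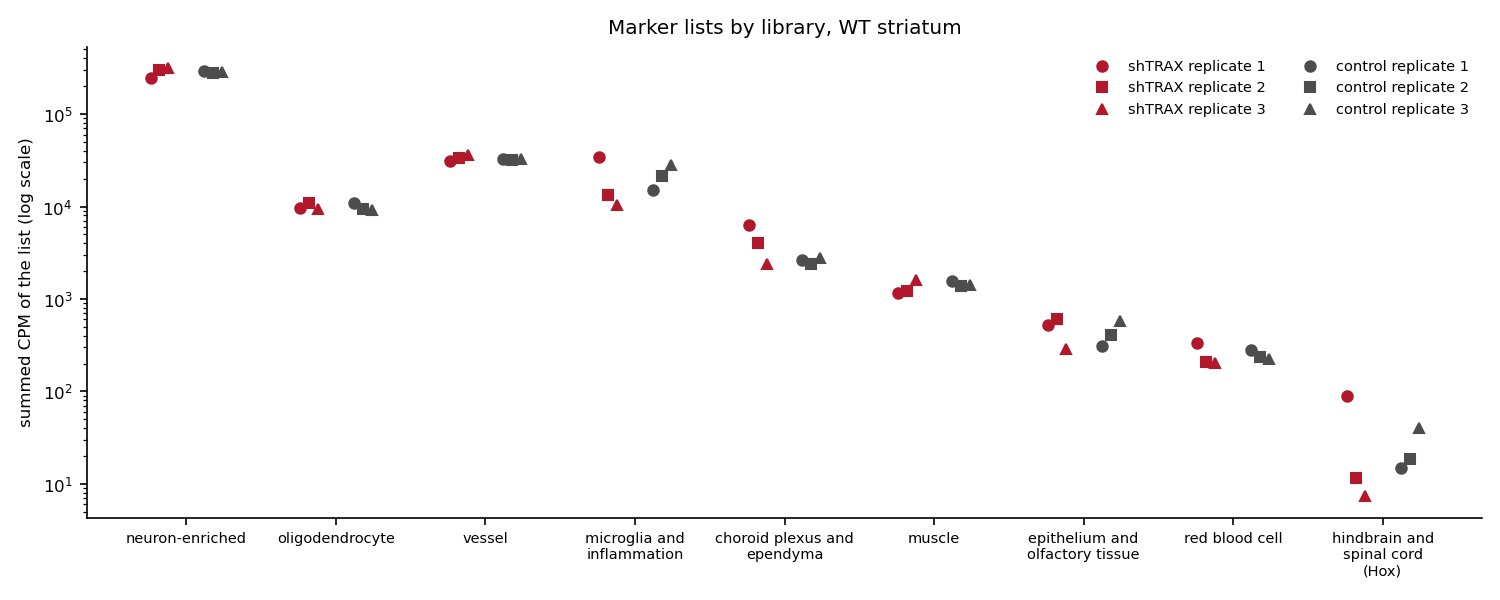
Summed CPM of each marker list (vertical axis, log scale) in the 3 shTRAX libraries (red, left of each pair) and the 3 control libraries (grey, right). The microglia, choroid plexus and Hox lists are highest in shTRAX replicate 1, while the oligodendrocyte and vessel lists differ little between libraries.

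The Hox list, which marks hindbrain and spinal cord, was low in all libraries, at 88.6, 11.5 and 7.34 CPM under shTRAX, against 14.96, 18.6 and 40.05 CPM in controls, with 4 of its 11 members at 0 in every library. Vessel markers summed to 30850, 33800 and 35930 CPM under shTRAX, against 32510, 32160 and 32410 CPM in controls, and oligodendrocyte markers to 9600, 10860 and 9295 CPM against 10940, 9321 and 9114 CPM. Epithelium and olfactory markers summed to 525, 605 and 284 CPM under shTRAX, against 311, 407 and 581 CPM in controls, muscle markers to 1166, 1229 and 1608 CPM against 1558, 1395 and 1409 CPM, and red blood cell markers to 330.6, 206.1 and 203.1 CPM against 281, 236 and 221 CPM. The groups overlapped in all 6 of these lists. What part these differences of composition had in the counts of 1 and 57 calls was not tested.

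Neuron-enriched miRNAs, which check the tissue label, were abundant in every library and summed to 247400, 300200 and 312100 CPM under shTRAX, against 290200, 281500 and 283200 CPM in controls. Replicate 1 was thus the lowest and replicates 2 and 3 the highest of the 6. With all 6 libraries 8 of 29 tested members lay above 0 and 21 below, where 48.0% and 52.0% of all miRNAs did. Their median was -0.07 with no call, miR-383-5p having the smallest p. miR-138-1-3p stood at 110, 96.2 and 113 CPM under shTRAX, against 132.9, 128.4 and 122.7 CPM in controls (-0.26 ± 0.11; -0.31 ± 0.09 without replicate 1), and miR-330-5p at 541, 500 and 536 CPM against 475, 440 and 438 CPM (0.22 ± 0.10; 0.18 ± 0.07). Both had groups that did not overlap, in opposite directions. Of the 29 members, 1 (miR-330-5p) had all shTRAX libraries above all controls and 4 had all below. Of all 665 miRNAs, 7.07% and 8.12% did. Without replicate 1 4 of the 29 were called higher and 5 lower, where 3.39% and 5.01% of all miRNAs were, so its called members did not move one way. miR-9-5p, miR-153-3p, miR-218-5p and miR-330-3p rose, and miR-124-3p, miR-132-3p, miR-212-3p, miR-212-5p and miR-383-5p fell. Of these, miR-218-5p, miR-124-3p and miR-212-5p were named after their values were seen.

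Of the 15 tested activity-induced miRNAs, 5 lay above 0 with all 6 libraries (median -0.12, no call). Without replicate 1, 3 fell (all from the miR-132 and miR-212 locus) and 1 rose (miR-29b-3p), where 8.41% of all miRNAs were called. miR-485-3p, of the Dlk1-Dio3 region, stood at 167, 166 and 177 CPM under shTRAX, against 189.5, 205.1 and 177.6 CPM in controls (-0.17 ± 0.11; -0.18 ± 0.09 without replicate 1). The 7 members of the miR-29 family lay above 0 in both fits, with medians of 0.06 and 0.13, where 48.0% and 45.9% of all miRNAs lay above 0. But miR-29b-3p was the 1 call, without replicate 1, where 3.39% of all miRNAs were called higher. miR-29a-3p, the most abundant of the family, was at 62000, 70200 and 77600 CPM under shTRAX, against 70100, 68800 and 69500 CPM in controls.

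Of the 11 tested miRNAs of the miR-125, miR-99 and miR-100 list, 10 lay below 0 with all 6 libraries (median -0.09, no call), where 52.0% of all miRNAs did, and 3 fell without replicate 1, where 5.01% of all did. miR-125a-5p stood at 12800, 13100 and 14000 CPM under shTRAX, against 14700, 15100 and 13600 CPM in controls (-0.12 ± 0.08; -0.11 ± 0.05 without replicate 1), and miR-125a-3p at 20.1, 21.2 and 22.2 CPM against 26.2, 25.6 and 24.2 CPM (-0.26 ± 0.11, edgeR adjusted p = 0.609; -0.25 ± 0.10 without replicate 1). The minor arm did not overlap between the groups and the major arm did. Of the 9 tested miRNAs of the miR-181 family 3 lay above 0 with all 6 libraries (median -0.05, no call), where 48.0% of all miRNAs did. Without replicate 1, 2 of the family's 9 fell, where 5.01% of all did. Its low-abundance passenger strand miR-181a-2-3p stood at 3.63, 1.56 and 1.32 CPM under shTRAX, against 2.74, 2.97 and 2.27 CPM in controls (-0.29 ± 0.38; -0.90 ± 0.23 without replicate 1, edgeR adjusted p = 0.0594), and miR-181b-2-3p at 1.72, 1.49 and 2.18 CPM against 1.55, 1.62 and 1.30 CPM (0.27 ± 0.24; 0.28 ± 0.26).

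Other lists are given by their counts alone. Of 25 tested REST-repressed miRNAs, which the neuronal repressor REST keeps silent outside neurons, 14 lay above 0 with all 6 libraries (median 0.01, no call), and 5 were called higher and 4 lower without replicate 1, where 3.39% and 5.01% of all miRNAs were. The let-7 and miR-98 family (23 tested), the miR-17-92 family and its paralogues (18) and the Sfmbt2 intron cluster (39, and 41 without replicate 1) had medians of 0.0, -0.07 and 0.07 with no call, and 1 lower call each without replicate 1. Some Sfmbt2 names had the same values, such as miR-297a-3p, miR-297b-3p and miR-297c-3p (each 3.7 CPM under shTRAX and 4.409 CPM in controls). The members of that list are therefore not all separate measurements. The miR-30 (11 tested), miR-34 and miR-449 (8), miR-26 (5) and miR-23, miR-24 and miR-27 (8, and 9 without replicate 1) lists held no call in either comparison, with medians of -0.09, 0.18, -0.02 and -0.06.

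The most abundant miRNAs varied little between the groups when all 6 libraries were used. miR-128-3p averaged 71600 ± 11900 CPM under shTRAX and 73600 ± 1670 CPM in controls, miR-125b-5p 62300 ± 3020 and 62700 ± 3650 CPM, miR-26a-5p 49900 ± 2560 and 52000 ± 161 CPM, and let-7f-5p 44700 ± 1960 and 44700 ± 347 CPM (SD, n = 3 each). The SD of the shTRAX group was the larger for miR-128-3p, miR-26a-5p and let-7f-5p, and in miR-128-3p its lowest library was replicate 1 at 58500 CPM.

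Since TRAX is part of an RNase known for removing passenger strands, the arms of each hairpin were compared. Both arms were tested for 220 hairpins. The mean log2 ratio of the minor to the major arm was -4.43, -4.36 and -4.34 in shTRAX replicates 1, 2 and 3, against -4.39, -4.40 and -4.44 in controls, so the groups overlapped. The means of -4.38 ± 0.05 under shTRAX and -4.41 ± 0.03 in controls (SD, n = 3 each) differed by 0.031 (exact two-sided permutation p = 0.4). Without replicate 1 the difference was 0.059, with an exact p of 0.1, which is the smallest that 2 against 3 libraries can give. This was the largest of the alternatives. Without any other single library the difference was 0.013 to 0.040. Over the 107 hairpins whose minor arm averaged at least 10 CPM it was 0.014 with all 6 libraries (exact permutation p = 0.9). With all 6 libraries both arms lay above 0 in 66 hairpins, mir-412 among them, and below 0 in 74.

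The calls made without replicate 1 were of miRNAs more abundant than most, at a median of 150 CPM for the 23 higher and 281 CPM for the 34 lower, against 14.7 CPM for the 621 not called. GC content of the mature sequence went with the differences to some extent. Across the 551 miRNAs with a sequence, which share libraries and are not independent, Spearman's rho of GC content with the log2 fold change was -0.25 with all 6 libraries, and -0.23 over 561 miRNAs without replicate 1. With the log2 ratio of a single shTRAX library to the mean of the controls it was 0.01, -0.28 and -0.14 in replicates 1, 2 and 3, and for each control against the other controls -0.01, 0.22 and -0.22. The median GC content was 40.9% in the higher calls, 48.9% in the lower calls and 47.8% in those not called, and its part in the calls was not tested.

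In the authors' deposited table for this comparison, 4 rows had an adjusted p under 0.05. These were miR-496a-3p with a fold of 2.3 (adjusted p = 4.19e-12 in the authors' deposited table), miR-412-5p with 1.84 (8.02e-06), miR-187-5p with -1.76 and miR-3535 with -1.52 (both 0.0121), where a negative fold is minus the inverse ratio. DESeq2 called the same 4 of 664 (0.602%), and limma's voom with library weights, which gave shTRAX replicate 1 a weight of 0.23, called 6 of 665 (0.902%), these 4 with miR-216a-5p and miR-671-5p. All of them come from the same libraries and are no independent evidence.

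The WT values were last set beside those of R6/2 striatum. Scaled over all 12 libraries, miR-496a-3p stood at 239, 239 and 131 CPM in R6/2 shTRAX libraries, against 113, 89.4 and 85.7 CPM in R6/2 controls, and miR-412-5p at 60.2, 68.6 and 110 CPM against 35.0, 28.6 and 32.2 CPM. For both miRNAs all R6/2 shTRAX libraries thus lay above all R6/2 controls, as in WT. Over all 689 miRNAs of the 12-library fit, groups that overlapped in neither genotype lay on the same side for 15 (2.18%) and on opposite sides for 16 (2.32%). The WT effect minus the R6/2 effect was 0.12 ± 0.31 for miR-496a-3p and -0.45 ± 0.30 for miR-412-5p on the log2 scale (edgeR adjusted p = 0.838 and 0.479). Without R6/2 shTRAX replicate 3 they were -0.10 ± 0.17 and -0.13 ± 0.17. miR-3535 stood at 25.1, 24.5 and 46.8 CPM in R6/2 shTRAX libraries, against 29.6, 30.3 and 32.7 CPM in R6/2 controls, and miR-187-5p at 8.26, 8.69 and 44.0 CPM against 13.4, 10.6 and 10.8 CPM. In both, R6/2 shTRAX replicates 1 and 2 lay below the controls and replicate 3 above them. The difference between genotypes was -0.68 ± 0.32 for miR-3535 and -1.65 ± 0.75 for miR-187-5p, and -0.29 ± 0.15 and -0.38 ± 0.25 without R6/2 shTRAX replicate 3. The edgeR test of this difference called 0 of 689 miRNAs (0.0%), where 61 (8.85%) had an unadjusted p under that threshold. DESeq2 called 2.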

How the data were processed

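Small RNA from mouse striatum was made into libraries with a kit that adds molecular identifiers and was read for 75 cycles from 1 end, per the labels' protocols. RNA was extracted with TRIzol or a column kit, and which sample had which is not given. The submitters' processing notes name bcl2fastq 2.20, Trimmomatic and build GRCm38. Which aligner and counter were run, whether molecular identifiers were collapsed and which test the authors chose is, in the sources used here, not given. Per the file headers, the deposited tables hold raw counts for 2059 rows of mature miRNA and precursor. The authors' deposited RPM values lay within 0.108 of the count scaled by its column total and were used in 1 alternative. The authors' deposited p-values and signed fold score (minus the inverse ratio for a fall) were read only as their own results.

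One row was kept for each of 1915 mature names, the precursor row with the highest mean; 81 names had several, and of 53 with a mean count of at least 10, the rows of 41 lay within 5% of each other throughout. Such counts cannot be split between hairpins. Deposited columns summed to 23693267 to 28589763 and kept rows to 14170438 to 16907912 counts per WT library. The main test was the quasi-likelihood test of edgeR 4.0.16 (R 4.3.3) after TMM scaling and filterByExpr (minimum count 10), adjusted by Benjamini-Hochberg over all miRNAs tested at a threshold of 0.05, for WT over 6 libraries and again without WT shTRAX replicate 1. The difference between genotypes was fitted over 12 libraries. Levels (CPM) are TMM-scaled counts over kept totals, and counts per library carry counting error beside that between replicates. The procedure was tested on simulated counts. These held no library unlike its group, so they cannot tell how the test behaves after WT shTRAX replicate 1 is left out for that reason. Single values were compared with exact permutation tests over libraries. Alternatives were other scalings and filters, DESeq2 1.42.0, limma 3.58.1, summed precursor rows, a fit over all libraries, a replicate block, library weights and leaving out each library.

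Hairpin positions and host genes are from GENCODE release 21 (GRCm38; 1900 names), mature sequences from RefSeq (GRCm38.p6; 1623 names, 82.9% of those tested), and clusters join hairpins no more than 10000 bases apart. The comparison, the lists and the miRNAs were chosen with earlier results of these data known. The text names miRNAs called with 6 libraries, the 5 higher and 5 lower with the smallest p, the 12 higher and 12 lower with the smallest p of those called without WT shTRAX replicate 1, those past 0.05 adjusted in the authors' deposited table and their other arms, the 6 most abundant, up to 3 members by p of each list described, and up to 4 abundant members of the choroid plexus and microglia lists. Of 22 lists, 8 are given by their counts alone, a choice made with their results known.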

Additional observations from a re-analysis of the deposited data

Results flagged for a closer look

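For 3 of the 58 miRNAs chosen by the naming rule (5.17%), and for 16 of all 689 (2.32%), all 3 shTRAX libraries lay on 1 side of their controls in WT and on the opposite side in R6/2. miR-125a-3p stood at 19.4, 20.7 and 21.5 CPM in WT shTRAX libraries, against 25.3, 24.9 and 23.5 CPM in WT controls, and at 35.3, 37.5 and 78.9 CPM in R6/2 shTRAX libraries, against 28.8, 28.6 and 29.8 CPM in R6/2 controls (12-library scaling). The difference of its shTRAX effect, WT minus R6/2, was -1.06 ± 0.36 on the log2 scale. miR-99b-5p, from the same cluster of hairpins, stood at 1110, 896 and 1070 CPM in WT shTRAX libraries, against 1240, 1190 and 1120 CPM in WT controls. The highest WT shTRAX library thus lay just under the lowest WT control. In R6/2 it stood at 1200, 1190 and 3340 CPM in shTRAX libraries, against 1030, 1040 and 1060 CPM in controls. Its difference was -1.08 ± 0.46. miR-29a-5p stood at 71.8, 70.4 and 72.8 CPM in WT shTRAX libraries, against 68.0, 63.9 and 67.9 CPM in WT controls. In R6/2 it stood at 57.8, 53.4 and 16.1 CPM in shTRAX libraries, against 76.9, 67.2 and 62.5 CPM in controls, and its difference was 0.80 ± 0.49. None of the 3 passed the test of that difference (edgeR adjusted p = 0.469 for each). In all 3 the value farthest from the R6/2 controls was that of R6/2 shTRAX replicate 3, and without it the differences were -0.56 ± 0.13 for miR-125a-3p, -0.39 ± 0.13 for miR-99b-5p and 0.43 ± 0.13 for miR-29a-5p (edgeR adjusted p = 0.193 to 0.488).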

How the results depend on the processing

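With all 6 libraries the count of 1 call was 1 under other scalings, a minimum mean of 10 CPM, limma on log2(RPM + 1), summed precursor rows and the replicate block. It was 4 with no filter (1362 tested), 4 by DESeq2, 6 with library weights, 0 in the 12-library fit, and 0 to 57 when 1 library was left out. The 7.52% at an unadjusted p under 0.05 became 3.48% in the 12-library fit, 4.51% under the replicate block, 22.4% with library weights, and 3.52% to 30.1% when 1 library was left out. The 57 calls without WT shTRAX replicate 1 became 110 with no filter, 113 by DESeq2 (57 higher, 56 lower), 37 with summed precursor rows, 83 (51 higher, 32 lower) with a minimum mean of 10 CPM, 69 under the replicate block (41 of the 57 shared), 0 in the fit over 11 libraries, and 1 to 60 when a further library was left out, while the 30.1% unadjusted became 17.6% with no filter and 9.71% over 11 libraries. No pairing by replicate number was seen: deviations of same-numbered libraries from their group means had correlations of -0.32, -0.12 and -0.36. Those of unlike-numbered libraries were 0.01 to 0.37. With 3 libraries a group such deviations depend on each other, so they cannot settle whether samples were paired. For the difference between genotypes DESeq2 called 2. The direction turned for miR-187-3p with library weights (0.04) and when 1 library was left out (-0.13 to 0.03), and in that way for miR-181a-5p (-0.46 to 0.0), miR-425-5p (-0.55 to 0.12) and miR-92a-3p (-0.6 to 0.09), and, with replicate 1 already out, for miR-1298-5p (-0.29 to 1.22) and miR-204-5p (-0.06 to 0.86). Over the alternatives the log2 fold change of miR-496a-3p ran from 1.11 to 1.28. The cause of these changes was not tested. With 3 libraries a group, exact tests cannot go below 0.1, and miRNAs under a few CPM rest on few counts.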

Other observations

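miR-6904-5p, from a hairpin on chromosome 1, was too scarce for the 6-library test and was chosen after its values were seen. It had 10, 7 and 15 counts in WT shTRAX libraries, against 1, 0 and 0 counts in WT controls, a ratio per kept total of 34.2 (95% exact interval 5.72 to 1390, for counting error alone). In R6/2 it had 11, 19 and 19 counts in shTRAX libraries, against 0, 0 and 3 counts in controls. WT shTRAX replicate 1 thus stood with the other shTRAX libraries for this miRNA, as it did for miR-412-5p. The fit with no filter on low counts called it, and the authors' deposited table gives it a fold of 42.3 (adjusted p = 0.094 there). RefSeq gives the mature sequence, with the seed in capitals, as uCCUGGGGuuagaguugagugg.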
